A study of Mus musculus with 12 samples.

Results

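The comparison was between germinal centre (GC) B cells of mice lacking the histone acetyltransferase Moz and GC B cells of control mice, both taken on day 7 after immunisation. The knockout mice were labelled Moz fl/fl AID-cre T/+, meaning that they carried floxed Moz alleles and the cre transgene. The control mice were labelled AID-cre T/+ and carried the same cre without floxed alleles. The 4 libraries, 2 for each genotype, were chosen by genotype and day from the 12 libraries of the series, and each was a pool of sorted cells from several mice on the C57BL/6 background. All mice had been immunised with NP-KLH (a hapten coupled to a carrier protein) precipitated in alum. The knockout pools held 6 and 8 mice and the control pools 6 and 5 mice. A knockout pool and a control pool shared each set of experiment dates, so the 4 pools form 2 pairs. This cre acts in B cells that are already activated, so Moz was present before that point, and it can also have acted in cells that later left the germinal centre. Floxed alleles were present in the knockout mice only, so an effect of the floxed chromosome segment and an effect of Moz loss cannot be told apart. Which exons were floxed and how the cells were gated was not given in the sources used here.

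Moz, encoded by Kat6a, is a MYST-family enzyme that acetylates histone H3 within a complex of Brpf, Ing and Meaf6 subunits, and it is known for keeping Hox and other developmental genes active in embryos and blood stem cells. Germinal centres are clusters of dividing B cells in which antibody genes are mutated and the cells are selected for affinity. Cells that leave the reaction become antibody-secreting plasma cells or memory B cells, which switch off the GC programme held in place by Bcl6.

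The 4 libraries held 14850655 and 21807036 gene counts in the knockout pools, against 18687202 and 24801297 in the control pools. Pools of the same genotype differed by far more than counting noise, with a chi-square per degree of freedom of 48.0 between the knockout pools and 40.2 between the control pools. Levels are given as CPM (counts scaled to library size) adjusted by TMM normalisation, always for pool 1 and then pool 2. With 2 pools per genotype an exact permutation test cannot go below p = 0.333, so gene calls rest on a model fitted over all 13131 genes tested and all 12 libraries. The label of the second control pool names males in both of its parts, so its count of 5 mice and their sex are as read from that label. The sex make-up differed between the genotypes in the counts, in the same direction in both pairs and more in the second. Xist, transcribed from the inactive X chromosome, was at 84.6 and 172 unscaled CPM in the knockout pools and at 64.4 and 14.6 in the control pools. The Y-linked gene Ddx3y was at 77.4 and 38.0 unscaled CPM in the knockout pools and at 108 and 82.1 in the control pools. Leaving out Xist, Tsix and the Y-linked genes left the counts of called genes at 35 higher and 4 lower, as given below for the model with the experiment dates. None of the genes left out had been called, so these counts say nothing about sex and other genes. An effect of sex on other genes was not tested.

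Both genotypes carried B cell transcripts at high levels. Summed over 10 pan B cell markers, the level was 5384 and 5660 CPM in the knockout pools and 5735 and 5974 CPM in the control pools. Marker lists of other lineages held both low and higher members. Their sums, and for most lists the directions of their tested members, are given further on. Among the T cell markers, Lck, which B cells can also express, was at 57.7 and 54.7 CPM in the knockout pools and at 56.0 and 50.4 CPM in the control pools, while Cd3e stood at 0 and 0.463 CPM in the knockout pools and at 0.472 and 0.139 CPM in the control pools. Among the stromal markers, Col1a2 and Pdgfra had no count in any of the 4 libraries.

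The counts did not register a loss of Kat6a transcript. Kat6a (chromosome 8, 22859442 to 22943259 on GRCm38) was at 66.4 and 93.7 CPM in the knockout pools and at 82.0 and 73.4 CPM in the control pools. The knockout mean was 80.0 ± 19.3 CPM and the control mean 77.7 ± 6.11 CPM (SD, n = 2 each), and the genotypes overlapped. The log2 fold change was 0.04 with a standard error of 0.38 (adjusted p = 1, edgeR quasi-likelihood test), and 0.03 with a standard error of 0.15 with the replicate block (adjusted p = 0.967). A count over the whole gene does not register the loss of a few exons, so it checks nothing about the deletion, and the genotype rests on the labels.

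No partner or relative of Moz passed the test. None of the 13 measured genes of the list of the MOZ complex and MYST acetyltransferases was called, and their median log2 fold change was 0.03 (all genes tested: -0.01). Brpf1, the scaffold subunit that joins Moz to its partners, had 48.7 and 36.4 CPM in the knockout pools, against 53.6 and 43.2 CPM in the control pools. Ing5, the subunit that reads histone H3 methylation, had 24.8 and 27.5 CPM against 24.5 and 20.8 CPM in the control pools. Kat6b, the closest paralog of Moz, had 6.21 and 5.70 CPM in the knockout pools, against 5.80 and 3.90 CPM in the control pools (log2 fold change 0.32, standard error 0.18, adjusted p = 0.574 with the replicate block). Kat7, the acetyltransferase also called HBO1, had 70.1 and 80.7 CPM in the knockout pools and 73.3 and 72.8 CPM in the control pools. Of the 21 tested genes within 2 Mb of Kat6a, none passed the test, the smallest adjusted p being 0.306.

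Without the pairing, edgeR called no gene higher and none lower at an adjusted p under 0.05, and 315 genes (2.4%) had an unadjusted p under 0.05. DESeq2 without the pairing called 8 genes higher, among them Ly6c2, and none lower, and limma-voom called none. With the experiment date as a replicate block, 35 genes rose in the knockout pools, or 0.267% of the genes tested, and 4 fell, or 0.0305%. At an unadjusted p under 0.05 the blocked fit had 1339 genes, or 10.2%, of which 779 (5.93%) were higher and 560 (4.26%) lower. Pools of the same date deviated from their genotype means together (correlation 0.361 over 13131 genes). Of the called genes, 12 were immunoglobulin variable segments, all of them higher, and 27 were other genes, 23 higher and 4 lower. The calls depended on which libraries set the spread. With the 8 GC libraries alone and the block, Ly6c2 was the only gene called. With the 4 Moz libraries alone and the block, 110 genes were called higher and 19 lower, including 31 of the 39. The 39 were chosen on these same pools and had the same sign in both pairs. Refits of the pools therefore give no separate evidence on direction. All 39 kept their direction in every blocked alternative that tested them, and Ly6c2 was the only one called in all 14 of those fits, the main blocked fit left aside.

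**Figure D1:**
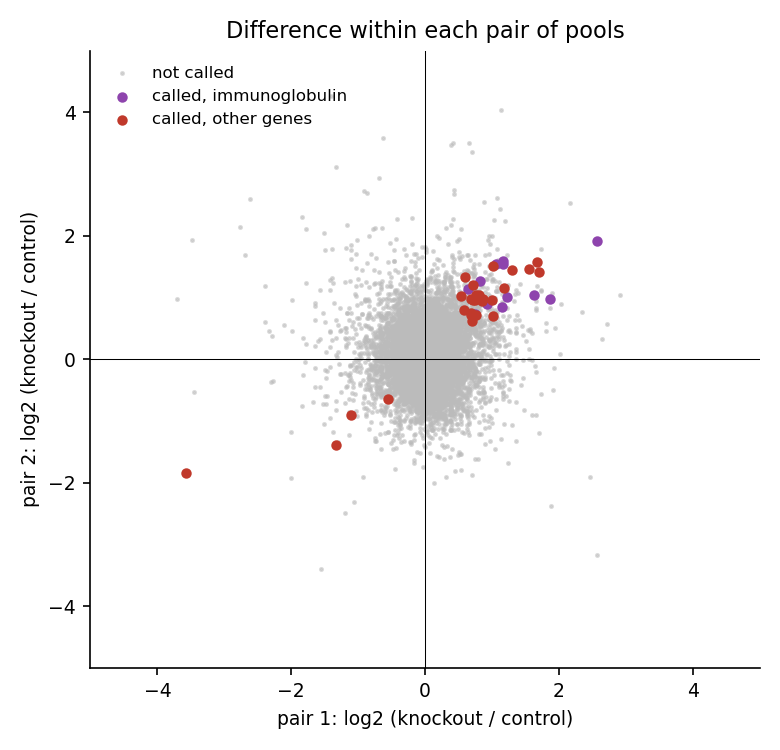
Log2 ratio of knockout to control in pair 2 (vertical axis) against pair 1 (horizontal axis) for the 13131 genes tested, with the 12 called immunoglobulin segments and the 27 other called genes in colour. The called genes lie on the same side of 0 in both pairs, which the choice by a paired fit favours, and the grey cloud spreads around 0 in all directions.

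Ly6c2 showed the clearest difference. It encodes Ly6C, a lipid-anchored surface protein of plasma cells, monocytes and some T cells, and lies on chromosome 15 from 75108161 to 75112066. It was at 56.9 and 79.0 CPM in the knockout pools and at 17.8 and 26.4 CPM in the control pools. Both knockout pools lay above both control pools, which choice by a test on the same pools favours. The log2 fold change was 1.63 with a standard error of 0.13 (adjusted p = 0.000537 with the block), and the blocked alternatives gave 1.58 to 1.68. Its near-identical neighbour Ly6c1 was counted at 0.302 and 0.185 CPM in the knockout pools, against 0.135 and 0.111 CPM in the control pools, so a split of reads between the copies may affect both.

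Several of the genes that rose encode surface and adhesion proteins. Itgb7, the integrin beta chain that pairs with Itga4 to guide lymphocytes to the gut, was at 55.7 and 64.5 CPM in the knockout pools, against 30.9 and 33.4 CPM in the control pools (log2 fold change 0.90, standard error 0.13, adjusted p = 0.0169). Cdh17, the liver-intestine cadherin, had 12.0 and 22.0 CPM in the knockout pools and 5.87 and 7.61 CPM in the control pools (log2 fold change 1.29, standard error 0.20, adjusted p = 0.0294). Atp1b1, the beta subunit of the sodium pump, had 9.19 and 11.5 CPM in the knockout pools and 4.01 and 5.10 CPM in the control pools (log2 fold change 1.18, standard error 0.14, adjusted p = 0.0106). For all 3 genes the knockout pools stood above the control pools without overlap, which choice by a test on the same pools favours. Genes without overlap were common, however, with 13.3% of all genes tested entirely above the control pools and 13.4% entirely below. Tmem176a, a channel-like membrane protein, had 13.2 and 18.9 CPM in the knockout pools and 7.83 and 9.67 CPM in the control pools (log2 fold change 0.87, adjusted p = 0.0270). Its neighbour Tmem176b had 21.4 and 29.6 CPM in the knockout pools and 14.5 and 16.4 CPM in the control pools, and missed the threshold (adjusted p = 0.0550).

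A second set of genes that rose encodes signalling proteins of immune cells. Csf2rb, the shared beta chain of the receptors for GM-CSF and related cytokines, was at 11.9 and 17.7 CPM in the knockout pools and at 7.83 and 6.97 CPM in the control pools (log2 fold change 0.99, standard error 0.16, adjusted p = 0.0408). Its paralog Csf2rb2 was nearly absent, at 0.345 and 0.0925 CPM in the knockout pools and 0.202 and 0.111 CPM in the control pools. Pik3r5, a regulatory subunit of the gamma isoform of PI3 kinase, had 9.53 and 12.6 CPM in the knockout pools, against 5.73 and 5.41 CPM in the control pools (log2 fold change 0.99, adjusted p = 0.0462). Nfam1, a receptor with an ITAM signalling motif that activates NFAT, had 14.5 and 17.3 CPM in the knockout pools, against 8.30 and 8.33 CPM in the control pools (log2 fold change 0.93, adjusted p = 0.0408). The knockout pools lay above the control pools for each of these called genes, which choice by a test on the same pools favours.

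The remaining genes of this size encode cytoskeletal, lysosomal and metabolic proteins. Myo1f, a class I myosin of immune cells, was at 26.2 and 26.7 CPM in the knockout pools, against 10.6 and 9.70 CPM in the control pools (log2 fold change 1.38, standard error 0.16, adjusted p = 0.00804). Ahnak, a giant scaffold protein, had 22.5 and 13.1 CPM in the knockout pools, against 11.2 and 6.69 CPM in the control pools (log2 fold change 0.99, adjusted p = 0.0437). For Ahnak both pools of the second pair were lower than their counterparts of the first, and each knockout pool was about as far above its own control. Cd68, a lysosomal membrane glycoprotein used as a macrophage marker, had 10.8 and 9.71 CPM in the knockout pools, against 5.87 and 4.90 CPM in the control pools (log2 fold change 0.93, adjusted p = 0.0422). Ass1, the enzyme that joins citrulline and aspartate in arginine synthesis, had 9.49 and 13.5 CPM in the knockout pools, against 5.53 and 6.52 CPM in the control pools (log2 fold change 0.92, adjusted p = 0.0470). Gm5424, listed by RefSeq as a transcribed pseudogene and related to Ass1, was also called higher, and how reads were divided between these copies was not examined.

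The other called genes that rose were lower in level or smaller in change, and were singled out after their values were seen. Plac8, a small cysteine-rich protein, had 60.3 and 52.6 CPM in the knockout pools and 36.6 and 27.0 CPM in the control pools (log2 fold change 0.84, adjusted p = 0.0169). Vsir, the immune checkpoint receptor VISTA, had 20.5 and 36.0 CPM in the knockout pools and 14.1 and 17.6 CPM in the control pools (log2 fold change 0.80, adjusted p = 0.0422). Tcn2, which carries vitamin B12, had 5.05 and 4.26 CPM in the knockout pools and 1.65 and 1.48 CPM in the control pools (log2 fold change 1.56, adjusted p = 0.0175). Gaa, Nrros, Lime1, Sik1, Selenom, Oosp1 and Dkk3 completed the set, with log2 fold changes between 0.67 for Sik1 and 1.63 for Dkk3. Among the genes other than immunoglobulin segments, Pik3r5, Ass1 and Selenom lost their calls in some fits that left out 1 pool, with adjusted p up to 0.0543 for Pik3r5, 0.0693 for Ass1 and 0.0584 for Selenom.

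Few genes fell. Adhfe1, a mitochondrial enzyme that oxidises hydroxybutyrate, had 3.32 and 2.62 CPM in the knockout pools and 8.57 and 7.05 CPM in the control pools (log2 fold change -1.40, standard error 0.19, adjusted p = 0.0159). Pfn2, a profilin that binds actin, had 6.86 and 9.25 CPM in the knockout pools and 14.9 and 17.5 CPM in the control pools (log2 fold change -1.01, standard error 0.16, adjusted p = 0.0294). Ccm2, a scaffold of the cerebral cavernous malformation complex, had 126 and 124 CPM in the knockout pools and 184 and 193 CPM in the control pools (log2 fold change -0.60, standard error 0.10, adjusted p = 0.0422). The fourth, the neurofilament gene Nefh, was at 0.129 and 0.709 CPM in the knockout pools and at 2.77 and 2.84 CPM in the control pools. Both knockout pools lay below both control pools for all 4 genes, which choice by a test on the same pools favours.

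**Figure D2:**
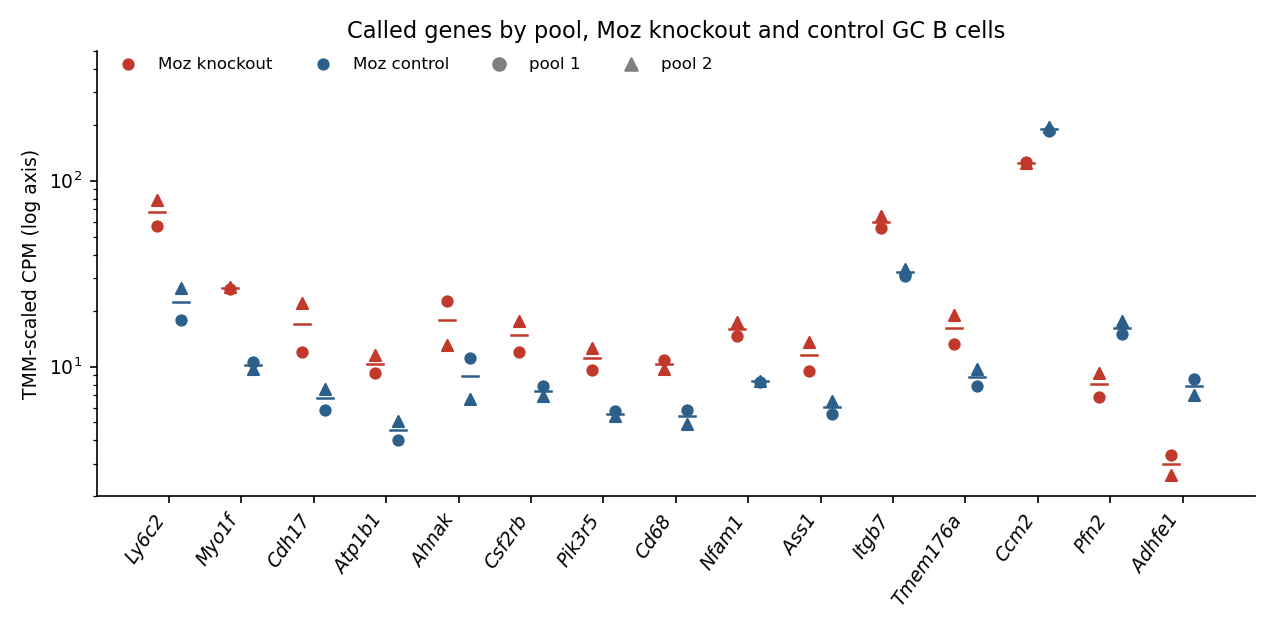
TMM-scaled CPM (log axis) of 15 called genes in each pool, with knockout pools in red and control pools in blue, pool 1 as circles, pool 2 as triangles and the mean of each genotype as a line. Ly6c2 stands at 56.9 and 79.0 CPM in the knockout pools, above 17.8 and 26.4 CPM in the control pools, and Ccm2, Pfn2 and Adhfe1 at the right are lower in the knockout pools.

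The stretches just upstream of these genes are shown because Moz complexes act at promoters, which fall into CG-rich and CG-poor classes. The sequences are the bases, at most 250, before the start given in a RefSeq promoter table (GRCm38.p6), without any that lie inside the annotated span of the gene, written 5′ to 3′ on the strand of the gene, with each CG dinucleotide in capitals. The 2 genes that rose with the smallest p and had an entry are given first, and then the 2 genes that fell and had one.
Ly6c2, chr15:75112067-75112221, minus strand: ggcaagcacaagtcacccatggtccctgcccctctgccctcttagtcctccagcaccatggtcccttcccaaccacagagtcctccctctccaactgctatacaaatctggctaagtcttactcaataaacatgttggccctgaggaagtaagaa
Myo1f, chr17:33555457-33555706, plus strand: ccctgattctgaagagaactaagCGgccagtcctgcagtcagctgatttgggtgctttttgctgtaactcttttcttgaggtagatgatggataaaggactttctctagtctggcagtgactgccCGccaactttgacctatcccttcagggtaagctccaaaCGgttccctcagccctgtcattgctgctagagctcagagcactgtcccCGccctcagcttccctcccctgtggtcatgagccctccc
Pfn2, chr3:57847758-57848007, minus strand: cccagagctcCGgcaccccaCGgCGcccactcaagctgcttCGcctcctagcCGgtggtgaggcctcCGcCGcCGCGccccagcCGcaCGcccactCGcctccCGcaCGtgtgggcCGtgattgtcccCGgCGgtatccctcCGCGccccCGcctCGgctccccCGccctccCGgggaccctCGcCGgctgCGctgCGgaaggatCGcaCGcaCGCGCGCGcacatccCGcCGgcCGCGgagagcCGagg
Ccm2, chr11:6546637-6546886, plus strand: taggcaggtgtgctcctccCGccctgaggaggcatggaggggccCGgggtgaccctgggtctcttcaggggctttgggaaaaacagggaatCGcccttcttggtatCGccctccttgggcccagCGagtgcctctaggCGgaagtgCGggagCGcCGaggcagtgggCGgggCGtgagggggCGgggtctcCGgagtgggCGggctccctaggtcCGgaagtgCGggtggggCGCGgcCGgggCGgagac
The Ly6c2 stretch is cut to 155 bases because 95 of the 250 lie inside the span of the gene, and none of the 250 is part of a CG. The Myo1f stretch holds 4 CG dinucleotides, whereas the Pfn2 stretch holds 38 and the Ccm2 stretch 20. Of the 27 called genes other than immunoglobulin segments, 19 had an entry, and where a gene had several the first listed was used. The 17 genes that rose had a median of 4 CG dinucleotides, and 6 of them (35.3%) had 10 or more. Over all 9824 tested genes with an entry the median was 16, and 73.4% had 10 or more. For some genes the start used lies inside the gene, as for Itgb7. Where the whole stretch lay outside the gene, 6 of 14 genes that rose (42.9%, median 6.5) and 72.3% of 5226 tested genes (median 15) had 10 or more. These are counts of letters in the reference and carry no measurement of methylation or of Moz binding.

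Genes known to be controlled by Moz in other tissues had few counts or did not pass the test in these cells. Of the 21 listed targets, 12 were expressed enough to be tested. The Hoxa genes Hoxa5, Hoxa6, Hoxa7, Hoxa9 and Hoxa10 and the developmental factors Meis1, Tbx1 and Tbx5 had at most 11 counts over the 4 libraries together. None of the 12 passed the test, and their median log2 fold change was -0.09. Cdkn2a, the locus of the senescence inhibitors p16 and p19 that rises on Moz loss in fibroblasts, was at 3.71 and 2.84 CPM in the knockout pools and at 3.24 and 3.40 CPM in the control pools (log2 fold change -0.04, standard error 0.22, adjusted p = 0.968). Its estimate was near 0 and changed sign with the libraries used. Of the 18 measured CDK inhibitor and senescence genes none passed, with 9 estimates above 0 and 9 below.

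The GC programme was lower in estimate, without a call. All 22 genes of the GC identity list had estimates below 0, with a median log2 fold change of -0.23, and 9 of them were lower in both knockout pools than in both control pools, against 13.4% of all genes. At an unadjusted p under 0.05, 7 of the 22 were lower, against 4.26% of all genes. The gene lists here and below were chosen with earlier results of these data known. Members of a list also share the same pairs of pools, so shares of a list are descriptive only. Over all genes tested 47.5% of the estimates were above 0 and the median was -0.01. Rgs13, a brake on chemokine receptor signalling in GC B cells, came closest to a call. It had 82.0 and 92.3 CPM in the knockout pools and 122 and 140 CPM in the control pools (log2 fold change -0.58, standard error 0.11, adjusted p = 0.0518). Gcsam, the GC adaptor that restrains cell motility, had 163 and 171 CPM in the knockout pools and 236 and 252 CPM in the control pools (adjusted p = 0.125). Fas, a death receptor that GC B cells display, had 53.6 and 46.9 CPM in the knockout pools and 68.6 and 70.1 CPM in the control pools (adjusted p = 0.125). Bcl6, the repressor that defines the GC state, overlapped, at 67.9 and 122 CPM in the knockout pools and 103 and 114 CPM in the control pools (log2 fold change -0.24, adjusted p = 0.619). Summed over 10 GC markers, the level was 1713 and 1826 CPM in the knockout pools and 2125 and 2387 CPM in the control pools.

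Zone genes showed no called difference. In the dark zone, where GC B cells divide and mutate, Cxcr4, the chemokine receptor that holds cells there, had 156 and 130 CPM in the knockout pools, against 175 and 141 CPM in the control pools. The dark zone list had 2 of 18 estimates above 0 and a median of -0.13. Its median log2 ratio was 0.05 in pair 1 and -0.26 in pair 2, so the negative median rested on the second pair. In the light zone, where cells are selected, Cd83 had 256 and 188 CPM in the knockout pools, against 287 and 243 CPM in the control pools. Cd86, a costimulatory ligand, had 86.8 and 94.9 CPM in the knockout pools and 89.6 and 77.3 CPM in the control pools, and Myc, the growth regulator of selected cells, had 42.6 and 26.0 CPM against 34.8 and 35.4 CPM in the control pools. The light zone list had 14 of 25 estimates above 0 and a median of 0.02. Its largest estimate was that of the cyclin gene Ccnd2, at 38.6 and 56.2 CPM in the knockout pools and 25.9 and 28.9 CPM in the control pools (log2 fold change 0.77, adjusted p = 0.0699).

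Proliferation genes had small negative estimates. None of the 26 S phase genes passed, all 26 estimates were below 0, and the median was -0.20. Mki67, the proliferation marker, had 532 and 566 CPM in the knockout pools and 645 and 868 CPM in the control pools (log2 fold change -0.45, standard error 0.17, adjusted p = 0.372). For the 26 genes of G2 and mitosis the median was -0.09. The pairs differed in several housekeeping lists. The 84 cytosolic ribosomal protein genes had a median log2 ratio of 0.15 in pair 1 and -0.65 in pair 2, and the 23 oxidative phosphorylation genes a median of 0.05 in pair 1 and -0.46 in pair 2. A negative median of those lists therefore rested on the second pair.

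Plasma cell genes had mostly positive estimates. Of the 24 measured genes of the plasma cell programme, 22 had estimates above 0, the median was 0.38, and Ly6c2 alone was called, while 13 were higher at an unadjusted p under 0.05 against 5.93% of all genes. Irf4, the factor that starts plasma cell differentiation, had 81.4 and 116 CPM in the knockout pools and 61.4 and 59.5 CPM in the control pools (log2 fold change 0.69, standard error 0.14, adjusted p = 0.0783). Bhlha15, which enlarges the secretory machinery, had 19.1 and 27.5 CPM in the knockout pools and 13.6 and 16.4 CPM in the control pools (log2 fold change 0.62, adjusted p = 0.0571). Both genes stood above the control pools in both knockout pools and missed the threshold. Prdm1, the gene of the plasma cell regulator Blimp1, overlapped, with 11.9 and 20.8 CPM in the knockout pools and 13.4 and 11.1 CPM in the control pools (log2 fold change 0.39, adjusted p = 0.643). Sdc1, the surface marker CD138, had 19.3 and 40.9 CPM in the knockout pools and 16.2 and 24.4 CPM in the control pools (adjusted p = 0.263). Of the 22 genes of the unfolded protein response, which expands the endoplasmic reticulum for secretion, 19 had estimates above 0 with a median of 0.24 and none passed. Pdia4, a disulfide isomerase of that compartment, had 340.1 and 623 CPM in the knockout pools and 237 and 411 CPM in the control pools (adjusted p = 0.243). Summed over 8 plasma cell markers, the level was 6786 and 8329 CPM in the knockout pools and 5277 and 5940 CPM in the control pools. Jchain alone held 5535 and 6530 CPM of that sum in the knockout pools and 4206 and 4386 CPM in the control pools. It was not called (adjusted p = 0.372 with the block). All 8 markers had estimates above 0, and 2 of them, Jchain and Irf4, stood above the control pools in both knockout pools. The other markers overlapped. The Myb control plasmablasts of the same series averaged 130007 CPM on the sum of all 8, of which Jchain held 116793 CPM. In pooled cells, more cells of a type and more RNA per cell cannot be told apart.

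Memory and naive B cell genes also had positive estimates. Of the 20 genes of the memory list, 17 had estimates above 0, the median was 0.50, 14 were above the control pools in both knockout pools, against 13.3% of all genes, and Itgb7 alone was called. At an unadjusted p under 0.05, 11 of the 20 were higher, against 5.93% of all genes, and 1 was lower, against 4.26%. Zbtb32, a repressor expressed in memory B cells, had 11.5 and 9.00 CPM in the knockout pools and 4.39 and 5.43 CPM in the control pools (log2 fold change 1.05, standard error 0.21, adjusted p = 0.0678). S1pr1, the receptor by which lymphocytes leave tissues, had 33.4 and 36.1 CPM in the knockout pools and 26.9 and 21.1 CPM in the control pools (adjusted p = 0.258). Bcl2, the survival factor that GC B cells keep low, had 16.6 and 11.6 CPM in the knockout pools and 12.9 and 7.77 CPM in the control pools (log2 fold change 0.47, adjusted p = 0.293). The memory list shares several genes with the naive follicular markers, among them Ccr6, S1pr1, Gpr183, Klf2 and Cd38. All 10 naive markers had estimates above 0, with a median of 0.49 and no call, and their sum was 680 and 738 CPM in the knockout pools and 630 and 518 CPM in the control pools. The part of naive or memory cells in these differences was not tested.

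Migration, cytokine receptor and interferon genes followed with smaller medians. The 27 migration and adhesion genes had 19 estimates above 0, a median of 0.27 and 1 call, Itgb7. Its partner Itga4 had 93.1 and 153 CPM in the knockout pools and 72.5 and 78.0 CPM in the control pools (log2 fold change 0.67, adjusted p = 0.0989). Among 21 cytokine receptors 17 had estimates above 0 and the median was 0.30. Their median log2 ratio was 0.08 in pair 1 and 0.38 in pair 2. Il6ra, the receptor for interleukin-6, had 7.63 and 12.8 CPM in the knockout pools and 5.80 and 5.02 CPM in the control pools (log2 fold change 0.90, adjusted p = 0.123). Among 28 interferon response genes 24 had estimates above 0, the median was 0.26 and none passed. Gbp2, an interferon-induced GTPase, had 10.4 and 12.0 CPM in the knockout pools and 7.19 and 7.27 CPM in the control pools (log2 fold change 0.63, adjusted p = 0.154). Of the 18 genes of the T-bet programme, 15 had estimates above 0, with a median log2 ratio of 0.12 in pair 1 and 0.38 in pair 2. In that list Itgam, the integrin CD11b, had 5.61 and 8.94 CPM in the knockout pools and 2.73 and 3.07 CPM in the control pools (log2 fold change 1.31, standard error 0.25, adjusted p = 0.0603), while Tbx21 itself overlapped at 5.56 and 3.15 CPM in the knockout pools and 5.06 and 2.23 CPM in the control pools. B cell receptor signalling (median -0.02 over 25 genes), class II presentation (0.05 over 17), apoptosis (0.05 over 24), glycolysis (-0.01 over 20) and Polycomb and other chromatin regulators (-0.04 over 27) lay near the median of all genes and had no call. For B cell receptor signalling, glycolysis and the CDK inhibitors the median changed sign with the scaling.

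**Figure D3:**
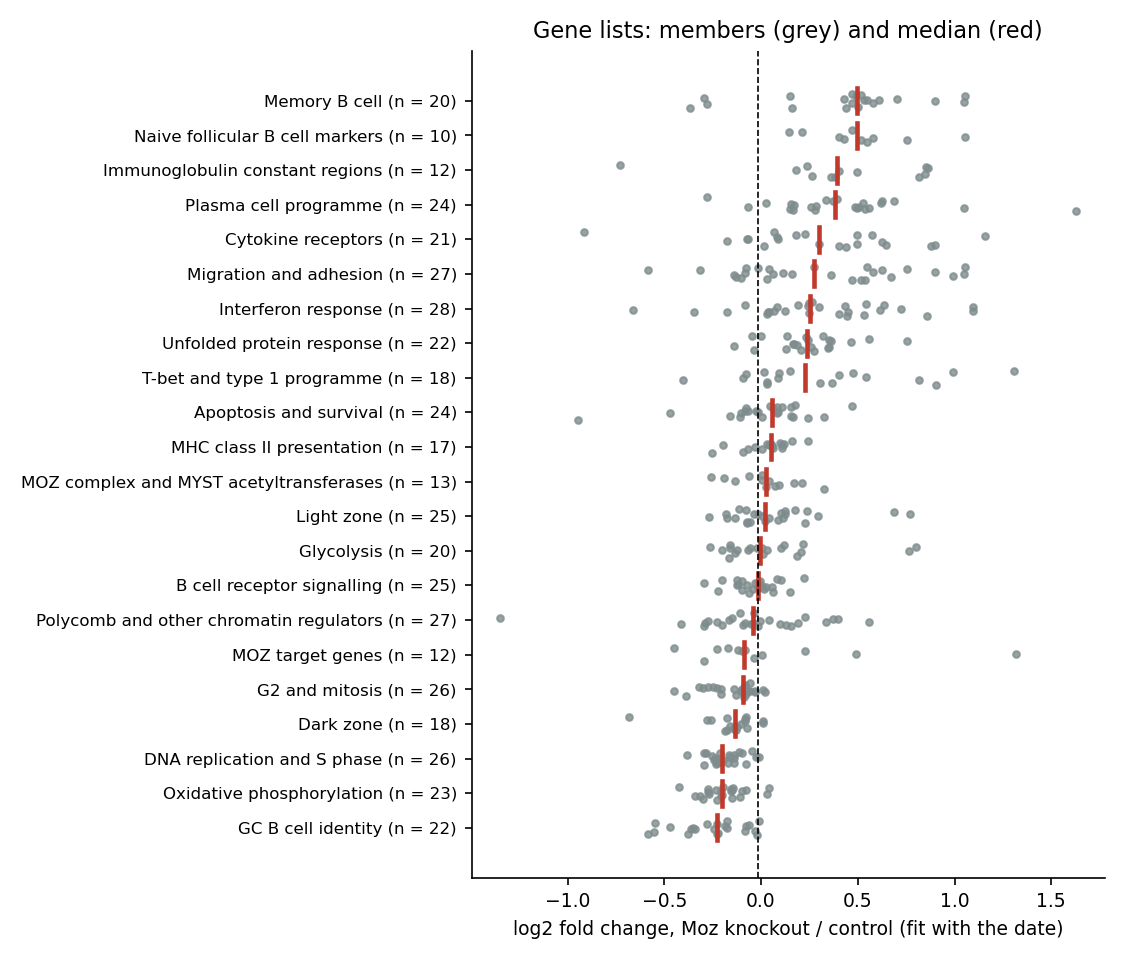
Log2 fold change of knockout over control in the fit with the experiment date for the tested members of 22 gene lists (grey points), with each list's median in red and the median of all genes, -0.01, as a dashed line. Memory, naive, plasma cell and immunoglobulin constant lists lie to the right with medians of 0.38 to 0.50, and GC identity, oxidative phosphorylation and S phase lists to the left with medians of -0.20 to -0.23.

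Because Cd68, Itgam, Csf2rb, Nfam1 and Nrros are also made by myeloid cells, the markers of that lineage were set beside them. Summed over 16 myeloid markers, the level was 39.3 and 38.2 CPM in the knockout pools and 24.3 and 35.5 CPM in the control pools. Lyz2, the lysozyme of macrophages and granulocytes, was at 6.69 and 3.98 CPM in the knockout pools and at 3.78 and 9.39 CPM in the control pools, and Csf1r, the macrophage growth factor receptor, at 1.73 and 2.28 CPM against 1.18 and 2.40 CPM in the control pools. Both overlapped. Cd68, Itgam and Adgre1, the macrophage antigen F4/80, stood apart, Adgre1 at 1.64 and 1.42 CPM in the knockout pools and 1.08 and 1.09 CPM in the control pools. Of the 13 tested markers 7 had estimates above 0, and the median log2 ratio was 0.80 in pair 1 and -0.09 in pair 2. The list for natural killer and plasmacytoid dendritic cells summed to 256 and 240 CPM in the knockout pools and 153 and 182 CPM in the control pools. Ly6d, a surface protein that B cells also make, held 221 and 206 CPM of that sum in the knockout pools and 130 and 155 CPM in the control pools. Bst2 and Prf1 of the same list also stood above the control pools in both knockout pools. Bst2 was at 32.2 and 28.2 CPM in the knockout pools and at 20.4 and 24.3 CPM in the control pools. Prf1 had 51 and 143 counts in the knockout pools and 45 and 38 counts in the control pools. The natural killer receptor Ncr1 was at 0.0431 and 0.278 CPM in the knockout pools and 0.0675 and 0.0836 CPM in the control pools. Of the 6 tested members of this list, 3 had estimates above 0, and 3 were higher at an unadjusted p under 0.05. None was called. Sums of T cell markers were 83.1 and 91.6 CPM in the knockout pools and 79.4 and 76.7 CPM in the control pools, most of it Lck. Of 12 tested T cell markers 8 had estimates above 0, and none was called. At an unadjusted p under 0.05, 3 of the 12 were higher, against 5.93% of all genes. Lat, Cd5 and Cd8b1 stood above the control pools in both knockout pools, Lat at 4.62 and 4.38 CPM against 2.83 and 3.01 CPM. Sums of erythroid markers were 1.21 and 0.678 CPM in the knockout pools and 0.540 and 0.836 CPM in the control pools. Stromal markers summed to 58.0 and 70.9 CPM in the knockout pools and 51.7 and 48.0 CPM in the control pools, mostly Pecam1, which lymphocytes also express. Of the 11 stromal markers 4 could be tested, and all 4 had estimates above 0, with a median of 0.53. At an unadjusted p under 0.05, 3 of the 4 were higher, against 5.93% of all genes, and none was called. The part of such cells in the called genes was not tested.

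Plasmablasts and GC B cells of the Myb control mice, which have floxed Myb without cre, gave a reference for where the called genes are normally expressed. Those plasmablasts are named secondary plasmablasts in the series and were of day 5, and those GC B cells were of day 12. Cell type, day and kind of response therefore cannot be told apart in that reference. Of the 23 genes that rose, other than immunoglobulin segments, 17 were higher in those plasmablasts than in those GC B cells, 3 were lower and 3 were not called. Over all genes tested, 25% were higher and 28.1% lower in the plasmablasts. The 4 genes that fell were all lower in the plasmablasts. Myo1f, Cdh17 and Dkk3 rose in the knockout pools although they were lower in plasmablasts. For the 17 genes, the mean rise between control and knockout pools amounted to between 1.37% and 57.1% of the mean plasmablast level, with a median of 12.5%. Irf4, Sdc1 and Xbp1 had rises of 6.22%, 1.78% and 0.741% on the same measure, and Plac8 32.0%. The plasmablasts came from a different day and genotype than the Moz pools, so these levels place the genes and do not measure a fraction of cells.

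**Figure D4:**
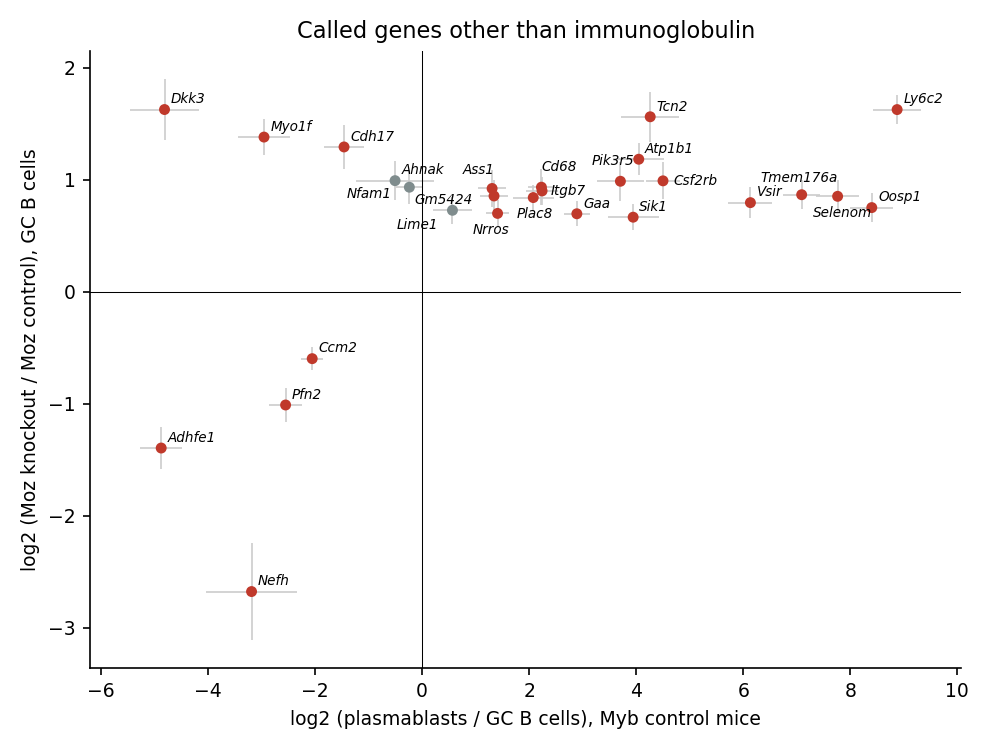
Log2 ratio of knockout to control in GC B cells (vertical axis, fit with the experiment date) against the log2 ratio of plasmablasts to GC B cells in Myb control mice (horizontal axis) for the 27 called genes other than immunoglobulin segments, with standard errors as lines and genes called between the cell types in red. Most genes that rose lie to the right of 0, with Ly6c2 farthest right, and the 4 genes that fell lie to the left.

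Immunoglobulin transcripts took a larger share of the knockout libraries. They made up 8.77% and 9.16% of all gene counts in the knockout pools and 7.03% and 6.06% in the control pools, or 8.96 ± 0.275% against 6.54 ± 0.686% (SD, n = 2 each), with no overlap. The exact permutation test of 2 against 2 pools cannot pass any threshold under its smallest p of 0.333. Of 250 immunoglobulin genes tested, 204 had estimates above 0 and the median was 0.48, but the pairs differed, with medians of 0.02 in pair 1 and 0.92 in pair 2. The 12 called segments were Ighv5-9-1, Ighv14-3, Ighv3-8, Ighv1-7, Ighv1-15, Ighv1-18, Ighv1-59, Ighv1-75, Ighv1-76, Igkv2-137, Igkv5-45 and Igkv18-36. Variable segments resemble each other closely, reads may be divided among them, and few B cell clones can set a segment's level, so these calls are uncertain. With 1 pool left out, Ighv1-59 lost its call in every fit (adjusted p 0.18 to 0.389) and Ighv3-8 in some (up to 0.234). Ighv14-3 was the most abundant of the 12. It had 577 and 1128 CPM in the knockout pools and 260 and 627 CPM in the control pools (log2 fold change 1.00, standard error 0.16, adjusted p = 0.0359). As a share of all heavy chain variable counts it held 28.5% and 37.4% in the knockout pools and 15.2% and 40.2% in the control pools, which overlap. Ighv1-72, the segment that dominates the anti-NP response in this strain, held only 0.0939% and 0.0592% in the knockout pools and 0.0968% and 0.0769% in the control pools.

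The constant regions had mostly positive estimates and no call. Of 12 constant region genes 11 had estimates above 0 and the median was 0.39. Ighm, the IgM heavy chain, made up 52.1% and 59.2% of the heavy chain constant counts in the knockout pools and 59.1% and 60.0% in the control pools. Ighg1 held 17.2% and 19.7% in the knockout pools, below 22.3% and 20.9% in the control pools, although its level in CPM was 5321 and 6785 in the knockout pools and 5383 and 4827 in the control pools (adjusted p = 0.740). Igha was uneven, with 20.8% and 5.79% in the knockout pools and 9.05% and 7.69% in the control pools. Ighg2b had 1626 and 2950 CPM in the knockout pools and 981 and 1500.4 CPM in the control pools (log2 fold change 0.85, standard error 0.19, adjusted p = 0.0989). Ighe, the IgE heavy chain, was the exception in direction, with 40.8 and 64.3 CPM in the knockout pools and 86.2 and 84.1 CPM in the control pools (log2 fold change -0.73, standard error 0.16, adjusted p = 0.0989). Its share was 0.132% and 0.187% in the knockout pools and 0.356% and 0.363% in the control pools. The light chain Iglc2 had 1880 and 2655 CPM in the knockout pools and 917 and 1673 CPM in the control pools (log2 fold change 0.85, adjusted p = 0.0989).

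**Figure D5:**
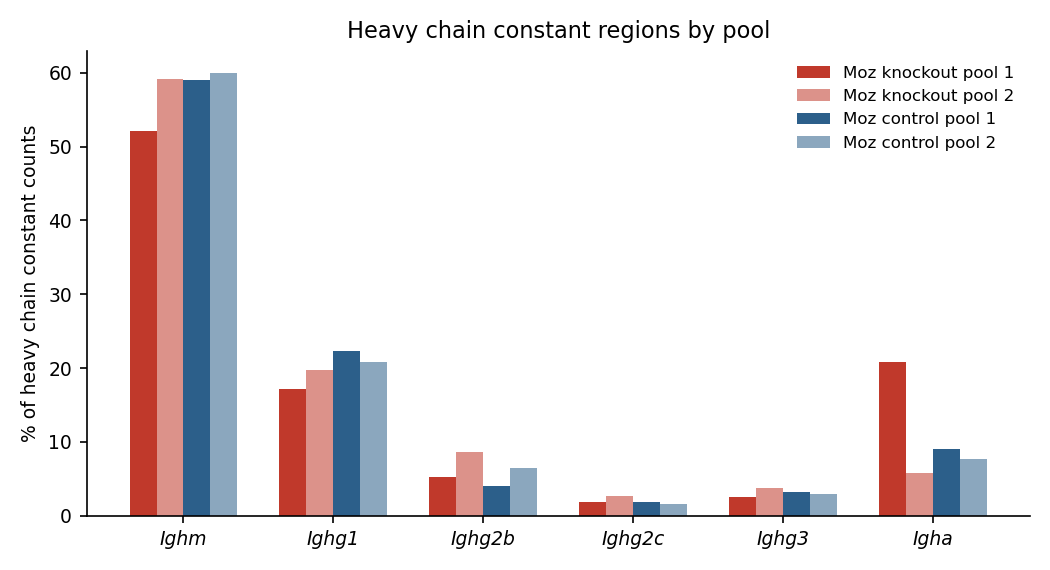
Share of heavy chain constant counts (percent) held by each constant region in the 2 knockout pools (red) and the 2 control pools (blue), with Ighd and Ighe left out for their low share. Ighm holds between 52.1% and 60.0% in the 4 pools, and Igha stands at 20.8% in knockout pool 1.

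The series also holds GC B cells of Myb knockout and Myb control mice on day 12, which gave a test of whether the Moz effect differed from another knockout's. The 2 comparisons share no library, but the blocked fit gives them the same estimate of each gene's spread. Of the 23 genes that rose, 19 had a positive estimate in the Myb comparison and 8 were called higher there with the block, against 49.8% and 2.03% of all genes tested. Choice by a Moz call favours genes of small estimated spread, which makes a Myb call likelier too. The share of Myb calls is therefore descriptive only. Those called there included Ly6c2 (log2 fold change 1.38, adjusted p = 0.00736), Plac8 (1.48, adjusted p = 0.000163) and Csf2rb (1.79, adjusted p = 0.000889). For none of the 27 called genes other than immunoglobulin segments did the difference of effects pass the test, Itgb7 being nearest (Myb log2 fold change -0.14, adjusted p of the difference 0.0504). Across all genes the difference of effects was called for 7 genes in the positive (0.0533%) and 24 in the negative direction (0.183%) with the block, for 11 genes by DESeq2 without it and for 0 genes by edgeR without it, where 386 (2.94%) had an unadjusted p under 0.05. Among the positive ones, the smallest adjusted p belonged to a gene without a symbol, with log2 fold changes of 0.03 for Moz and -3.25 for Myb. It averaged 2649 CPM in the Myb control GC pools and 279 CPM in the Myb knockout GC pools. Its means were 252 CPM in the Myb control plasmablasts, 266 CPM in the Moz knockout pools and 260 CPM in the Moz control pools. Another gene without a symbol had 0.05 for Moz and -3.12 for Myb, with means of 26301.5 CPM in Myb control and 3019 CPM in Myb knockout GC pools. These differences therefore came from the Myb comparison, where the control GC pools stood high. What these 2 entries encode was not examined. Ighv14-3 was also among the positive ones, with a difference of 1.77 on the log2 scale (adjusted p = 0.0104). Tbx21, the gene of T-bet, was among the negative ones, with a difference of -1.92 (adjusted p = 0.0205), its estimate being 0.30 for Moz and 2.22 for Myb. The strains differed in cre, day and floxed gene, and their parts in these differences cannot be told apart.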

How the data were processed

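PolyA RNA of sorted GC B cells was sequenced by the study. The authors deposited raw counts per Entrez gene. The submitters' processing notes name featureCounts and the build mm10, and no source used here gives the aligner, the strandedness or any version. Symbols, coordinates and promoters came from RefSeq on the same build (GRCm38.p6). The members and gene lists were chosen with earlier results of these data known. Genes passed edgeR 4.0.16 filterByExpr (minimum count 10, minimum total 15), were scaled by TMM and tested by the robust quasi-likelihood test over 12 libraries and 6 group means (R 4.3.3), with Benjamini-Hochberg adjustment over all 13131 genes at 0.05. The numbering pairs the samples because the labels give same-numbered pools the same dates, so a fit with the replicate block (3 residual degrees of freedom, 6 without it) is printed beside it, and gene values above are from that fit unless stated. The design text speaks of independent experiments. Without the block, p-values measure the spread between pools of mice. With the block, they measure how far differences vary between pairs. Of the 3 residual degrees of freedom of that fit, 1 came from the Moz pools and the rest from the Myb experiments. Named genes were the 12 with the largest change in each direction among called genes averaging at least 4 CPM and not immunoglobulin segments, with the 10 of smallest p, Kat6a, chosen B cell genes and up to 4 genes per list. DESeq2 1.42.0 and limma 3.58.1 (voom), other scalings and filters, other library sets and leaving out each pool were alternatives, blocked versions of most of them (not the 4 Moz libraries alone) being added after the data were seen. The scripts were tested on simulated counts. Some results are not reported here.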

Additional observations from a re-analysis of the deposited data

How the results depend on the processing

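Without the block, edgeR called 0 genes higher and 0 lower; DESeq2 called 8 and 0, no low-count filter gave 45 and 10, leaving out single pools gave 0 to 3 higher and 0 lower, and the other alternatives 0. The replicate block gave 35 higher and 4 lower; on the 4 Moz libraries alone it gave 110 and 19, and on the 8 GC libraries alone 1 and 0. With the block, RLE size factors gave 54 higher, no TMM 74 and 12 lower, DESeq2 67, no filter 137 and 36 lower, and immunoglobulin genes left out 60 and 8 lower. With the block, leaving out 1 pool gave 93 to 1253 genes higher and 106 to 1611 lower; those fits hold 1 intact Moz pair, with the spread taken from the Myb experiments, and the large numbers (1243 and 1608, 1253 and 1611) came without knockout pool 1 or control pool 1, where pair 2 remains, against 93 and 106, and 94 and 119, where pair 1 remains. Higher calls were 89.7% of all calls with the block and 43.6% to 46.7% in those fits. The difference of the Moz and Myb effects had 0 calls without the block, 11 by DESeq2 and 31 with the block.

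Leaving out 1 pool without the block turned the direction of genes that were never called: Kat6a ranged from -0.20 to 0.27 on the log2 scale, Bcl6 from -0.65 to 0.17, Myc from -0.44 to 0.30, Cxcr4 from -0.29 to 0.020, Prdm1 from -0.015 to 0.77, Kat7 from -0.035 to 0.14, Brpf1 from -0.41 to 0.033 and Cdkn2a from -0.23 to 0.19. Cdkn2a was also 0.0078 with the 8 GC libraries, 0.0065 with the 4 Moz libraries and 0.00059 without immunoglobulin genes. The cause of these changes was not tested. With 2 pools per genotype, differences that missed the threshold are not shown to be absent.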
